A study of Homo sapiens with 6 samples.

Results

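The genes described here are 10 genes of the NRF2 antioxidant response, taken by name from a table of 12010 genes. They are the transcription factor gene NFE2L2, which encodes NRF2, its repressor gene KEAP1, and the response and thioredoxin genes GCLC, GCLM, SLC7A11, TXN, TXNRD1, SRXN1, HMOX1 and NQO1. All 10 were found in the files and all 10 passed the filter on low values, which left 11520 genes for testing. RNA sequencing covered 6 samples of 92.1, an established human cell line of uveal melanoma, which arises from melanocytes in the eye. The 3 samples of the LBH589 group were treated with 0.1 µM LBH589 (panobinostat), an inhibitor of histone deacetylases, for 24 h. The 3 samples of the DMSO group received the solvent alone for 24 h. Levels are in FPKM, fragment numbers scaled to transcript length and to the total of the library, and were summed here from transcripts to genes. Levels of different genes are therefore compared per length.

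NRF2 is a transcription factor that KEAP1, an adaptor of a CUL3 ubiquitin ligase, marks for destruction in unstressed cells. Oxidants and electrophiles modify KEAP1, after which NRF2 accumulates, pairs with small MAF proteins and binds antioxidant response elements near its target genes. Control of NRF2 is therefore largely at the protein level, which RNA sequencing does not measure. The known targets make glutathione, recycle thioredoxin and peroxiredoxin, break down haem and reduce quinones.

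Promoter windows of 300 bases (250 before and 50 after an annotated start) were read from RefSeq, build GRCh38.p14, to show where the core of the antioxidant response element lies. The search used the letters TGACNNNGC on both strands, so it also finds GCNNNGTCA, and it was the only motif searched. Windows were matched by symbol for 8 of the 10 genes, 11 windows in all, and not for HMOX1 and SLC7A11. Matches lay in 4 of the 11 windows, those of GCLM and TXNRD1, which rose, and 1 of the 2 windows of KEAP1, which was not called. The windows of GCLC and SRXN1, which also rose, hold no match, nor do those of NFE2L2, NQO1 and TXN. A link between the core and the change of a gene was not tested. Of all 35116 windows of this length, 13.3% hold the core, so a match is a description and not a binding site. The windows of GCLM and the second window of TXNRD1 are shown because both genes rose and both hold the core. SRXN1, the gene with the largest rise, and NQO1, with the largest fall of the 10, are shown as windows without it. Each reads 5′ to 3′ on the strand of the gene, and capitals mark the match to the core.
GCLM, chr1:93909381-93909680, minus strand: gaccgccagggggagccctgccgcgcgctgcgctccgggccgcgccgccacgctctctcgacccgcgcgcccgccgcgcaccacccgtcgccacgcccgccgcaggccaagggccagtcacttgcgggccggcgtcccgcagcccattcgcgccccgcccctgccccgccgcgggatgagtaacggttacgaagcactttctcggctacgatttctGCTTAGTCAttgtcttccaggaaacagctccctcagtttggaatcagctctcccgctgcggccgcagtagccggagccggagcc
TXNRD1, chr12:104286782-104287081, plus strand: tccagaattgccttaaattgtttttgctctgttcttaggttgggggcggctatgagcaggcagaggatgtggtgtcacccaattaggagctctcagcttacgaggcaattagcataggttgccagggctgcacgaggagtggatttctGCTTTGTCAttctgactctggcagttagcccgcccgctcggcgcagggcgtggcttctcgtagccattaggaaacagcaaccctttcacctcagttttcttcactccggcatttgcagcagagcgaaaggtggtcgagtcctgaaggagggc
SRXN1, chr20:653151-653450, minus strand: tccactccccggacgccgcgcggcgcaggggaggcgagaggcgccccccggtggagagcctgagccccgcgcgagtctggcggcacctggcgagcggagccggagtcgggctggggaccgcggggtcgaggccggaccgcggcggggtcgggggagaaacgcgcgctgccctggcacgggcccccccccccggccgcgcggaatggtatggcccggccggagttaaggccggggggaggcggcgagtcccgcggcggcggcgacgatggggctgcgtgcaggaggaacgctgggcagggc
NQO1, chr16:69726511-69726810, minus strand: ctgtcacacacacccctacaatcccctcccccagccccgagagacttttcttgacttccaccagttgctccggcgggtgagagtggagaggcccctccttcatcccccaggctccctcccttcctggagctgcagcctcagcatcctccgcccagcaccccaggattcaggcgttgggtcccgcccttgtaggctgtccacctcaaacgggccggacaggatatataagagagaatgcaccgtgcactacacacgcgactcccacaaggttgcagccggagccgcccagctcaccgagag
The match in GCLM, GCTTAGTCA, begins 34 bases before the start, and the same 9 letters begin 31 bases before the start in the second window of KEAP1. Bases 6 to 40 after the start of the GCLM window are in 1 of the 2 listed transcripts, GCLM-204, and not in GCLM-201. GCLM-204 held 2.67, 3.65 and 38.2% of the FPKM of GCLM in LBH589 replicates 1 to 3, against 1.06, 0 and 0.591% in DMSO. The match in the second window of TXNRD1, GCTTTGTCA, begins 102 bases before the start. The other window of TXNRD1 holds 2 matches, but bases 6 to 40 after its start are in 0 of the 12 listed transcripts, against 7 of 12 for the window shown. Elements farther from a start were not searched.

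Summed FPKM lay between 355148 and 367222 per library in LBH589 and between 397174 and 422630 in DMSO. Mitochondrially encoded genes held 35.1 to 37.3% of FPKM in LBH589 and 35.8 to 45.7% in DMSO. The part of these differences in the results was not tested, but making the library sums equal, with or without mitochondrial genes, changed no direction and ended no call among the 7 genes called below. With equal sums the median change over the tested genes was 0.22 on the log2 scale, against 0.08 as deposited. All 7 melanocyte lineage markers were listed (MITF, MLANA, PMEL, TYR, TYRP1, DCT and SOX10), with summed levels of 718 to 774 FPKM in LBH589 and 2530 to 2670 FPKM in DMSO. TYRP1 held most of these sums, with means of 499.6 FPKM in LBH589 and 1795.6 FPKM in DMSO. By the calls defined below 6 of the 7 fell, where 21.6% of all genes tested did. DCT, with a mean of 0.258 FPKM in LBH589, passed the filter through its DMSO values. The part of the lower marker levels in the results below was not tested. Of 4 endothelial markers 0 were listed, and of 6 leukocyte markers 1, CD68, was, at 6.69 to 12.4 FPKM in LBH589 and 11.6 to 16.8 FPKM in DMSO. Listed fibroblast markers (3 of 6) summed to 4.56 to 6.25 FPKM in LBH589 and 1.97 to 2.995 FPKM in DMSO, and listed epithelial markers (3 of 6) to 8.92 to 11.8 FPKM in LBH589 and 5.52 to 8.57 FPKM in DMSO. The files hold no counts, so the depth of the libraries is unknown. The labels name no separate cultures, so p-values measure spread between the 6 samples only, and that spread may be technical. In bulk RNA, fewer cells with a transcript and less RNA per cell cannot be told apart.

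LBH589 was set against DMSO to see which of these genes differ after histone deacetylase inhibition. Of the 10 genes, 5 rose (GCLC, GCLM, TXNRD1, SRXN1 and HMOX1) and 2 fell (NQO1 and TXN), while NFE2L2, KEAP1 and SLC7A11 did not pass. Genes were called at an adjusted p below 0.05 in limma, fitted over all genes with Benjamini-Hochberg adjustment. Of all genes tested, 27.2% rose, 21.6% fell and 48.8% were called in either direction. The median log2 fold change of the 10 genes was 1.27, against 0.08 for all genes tested. The 10 genes were chosen with earlier results of these data known, so this contrast is a description and not a test. All 3 LBH589 values lay above all 3 DMSO values in 6 of the 10 genes and below them in 2, where these shares over all genes were 33.0% and 26.5%. Each log2 fold change is the mean of log2(FPKM + 1) in LBH589 minus that in DMSO, and this scale understates changes at low levels.

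**Figure D1:**
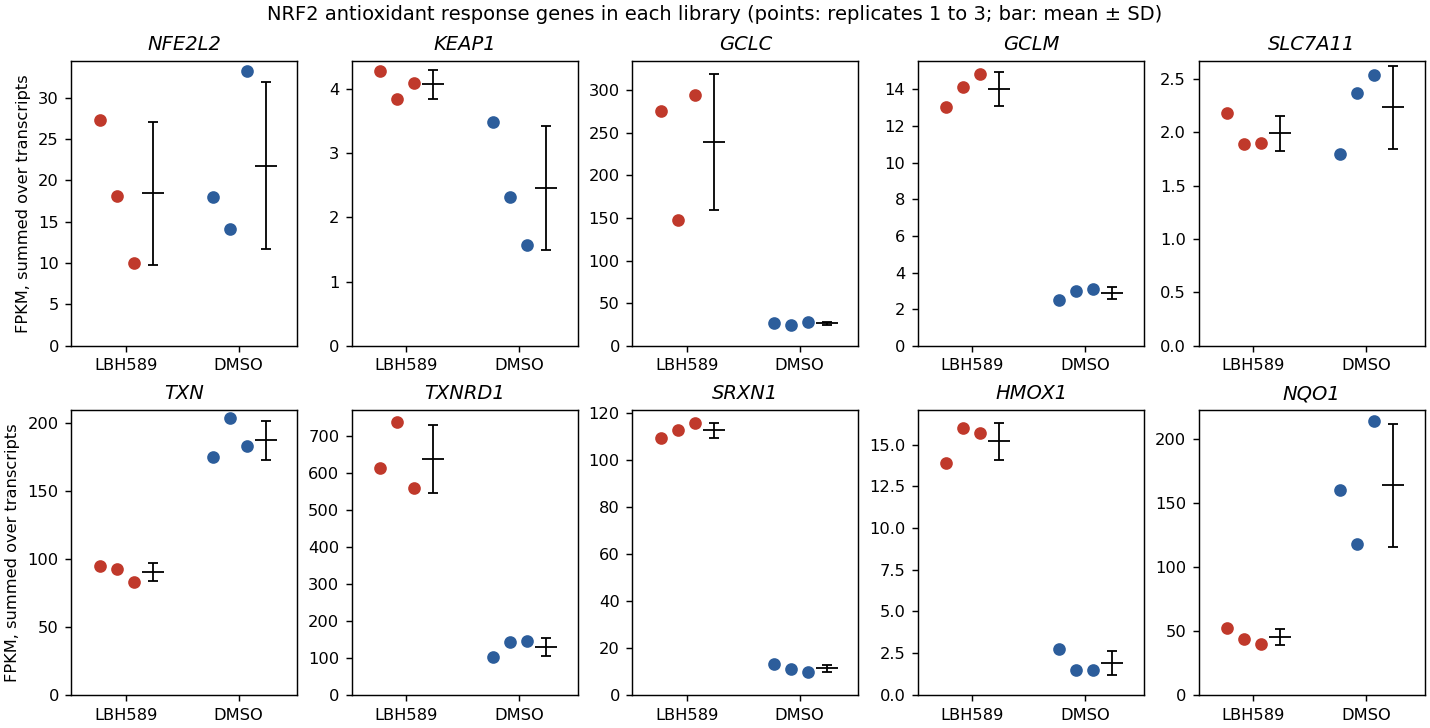
FPKM of the 10 genes in each library (y axis, a separate scale per panel that starts at 0), LBH589 in red and DMSO in blue, with points for replicates 1 to 3 and a bar for the mean ± SD. GCLC, GCLM, TXNRD1, SRXN1, HMOX1 and KEAP1, the last of which was not called, were higher in all 3 LBH589 libraries than in any DMSO library. NQO1 and TXN were lower in all 3, and NFE2L2 and SLC7A11 overlapped.

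The transcript levels of the regulator pair did not pass the test. NFE2L2 had 27.3, 18.1 and 9.96 FPKM in LBH589 replicates 1 to 3, against 17.96, 14.2 and 33.2 FPKM in DMSO replicates 1 to 3. The groups overlapped throughout, and the highest value was that of DMSO replicate 3. Its log2 fold change was -0.25 (SE 0.44, 95% interval -1.31 to 0.82, limma adjusted p = 0.676), an interval wide enough to hold a fall as large as that of TXN. Its sign turned without LBH589 replicate 3 (0.12) and without DMSO replicate 3 (0.09). KEAP1 had 4.28, 3.83 and 4.09 FPKM in LBH589, against 3.48, 2.31 and 1.57 FPKM in DMSO. Every LBH589 value of KEAP1 lay above every DMSO value, but the log2 fold change of 0.59 (SE 0.22, 95% interval 0.06 to 1.12) did not pass (limma adjusted p = 0.0680). It did pass with equal library sums (0.72, limma adjusted p = 0.0377) and without DMSO replicate 1 (0.795, limma adjusted p = 0.0117). The log2 fold change of KEAP1 was smaller from its most abundant transcript (0.26, limma adjusted p = 0.848). With transcripts weighted by length it was 0.37 (limma adjusted p = 0.290). Over the 6 libraries 3 different transcripts of KEAP1 led, and 0 of its 3 listed transcripts were higher in all LBH589 libraries than in any DMSO library.

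Both genes of the enzyme that makes gamma-glutamylcysteine, the first step of glutathione synthesis, rose. GCLC, its catalytic subunit, had 276, 148 and 295 FPKM in LBH589 replicates 1 to 3, against 26.8, 24.8 and 28.5 FPKM in DMSO. The lowest LBH589 value, that of replicate 2, was still far above the highest DMSO value. The mean was 239.6 ± 79.9 FPKM in LBH589 and 26.7 ± 1.89 FPKM in DMSO (SD, n = 3 each), 8.98 times as high, with a log2 fold change of 3.06 (SE 0.27, limma adjusted p = 3.16e-04). GCLM, the modifier subunit that lowers the enzyme's sensitivity to feedback by glutathione, had 13.04, 14.1 and 14.9 FPKM in LBH589, against 2.51, 3.02 and 3.13 FPKM in DMSO. Replicates of GCLM lay close together in both groups, and its log2 fold change was 1.95 (SE 0.12, adjusted p = 8.51e-05, limma). GCLM stood at a lower level than GCLC in every library, on the FPKM scale. SLC7A11, the light chain of the cystine importer that supplies cysteine for glutathione, had 2.18, 1.89 and 1.901 FPKM in LBH589, against 1.798, 2.37 and 2.54 FPKM in DMSO. These values overlapped, with a log2 fold change of -0.11 (SE 0.14, 95% interval -0.46 to 0.24, limma adjusted p = 0.569). The whole interval lies below the log2 fold changes of GCLC and GCLM, on a scale that compresses genes at this level. Its sign turned with equal sums (0.0135) and with sums of 1000000 (0.0182).

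Of the thioredoxin genes among the 10, TXNRD1 and SRXN1 rose and TXN fell. TXNRD1, the cytosolic reductase that returns oxidised thioredoxin to its active form, had 614, 738 and 561 FPKM in LBH589, against 102.2, 143 and 146 FPKM in DMSO. Its mean was 638 ± 91.1 FPKM in LBH589 and 130.3 ± 24.4 FPKM in DMSO (SD, n = 3 each; log2 fold change 2.29, SE 0.18, limma adjusted p = 2.13e-04). By mean FPKM it was the highest of the 10 genes in LBH589, 47th of all 12010 genes, and 249th in DMSO. SRXN1, sulfiredoxin, which repairs over-oxidised peroxiredoxins, had 109.2, 112.5 and 115.8 FPKM in LBH589, against 12.97, 11.2 and 9.67 FPKM in DMSO. It had the largest rise of the 10, 9.98 times on the linear scale, with a log2 fold change of 3.22 (SE 0.12, limma adjusted p = 2.40e-05). TXN, cytosolic thioredoxin, had 95.04, 92.8 and 83.1 FPKM in LBH589, against 175.2, 203.3 and 182.6 FPKM in DMSO. All 3 LBH589 values lay below all 3 DMSO values, and the log2 fold change was -1.04 (SE 0.11, limma adjusted p = 5.00e-04). TXN averaged 90.3 ± 6.33 FPKM in LBH589 and 187 ± 14.6 FPKM in DMSO (SD, n = 3 each). On the FPKM scale TXN stood below TXNRD1 in each of the 3 LBH589 libraries and above it in each of the 3 DMSO libraries.

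HMOX1 and NQO1, both widely used as markers of the NRF2 response, moved in opposite directions. HMOX1, haem oxygenase 1, which breaks haem down to biliverdin, iron and carbon monoxide, had 13.9, 15.98 and 15.7 FPKM in LBH589, against 2.73, 1.49 and 1.47 FPKM in DMSO. The mean was 15.2 ± 1.11 FPKM in LBH589 and 1.897 ± 0.723 FPKM in DMSO (SD, n = 3 each; log2 fold change 2.51, SE 0.19, limma adjusted p = 1.87e-04). DMSO replicate 1 was the highest of its group, and without it the log2 fold change was 2.705. NQO1, a quinone reductase, had 52.3, 43.8 and 40.1 FPKM in LBH589, against 160.5, 118 and 214.1 FPKM in DMSO. Even the lowest DMSO value was above all LBH589 values, and the log2 fold change was -1.80 (SE 0.23, limma adjusted p = 0.00131). NQO1 averaged 45.4 ± 6.21 FPKM in LBH589 and 164.2 ± 48.1 FPKM in DMSO (SD, n = 3 each), with DMSO replicate 3 the highest.

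Among all 11520 tested genes ranked by log2 fold change, SRXN1 was 64th from the top, GCLC 79th, HMOX1 147th, TXNRD1 216th and GCLM 350th. NQO1 was 408th from the bottom and TXN 1246th. The plot of change against level shows where they lie.

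**Figure D2:**
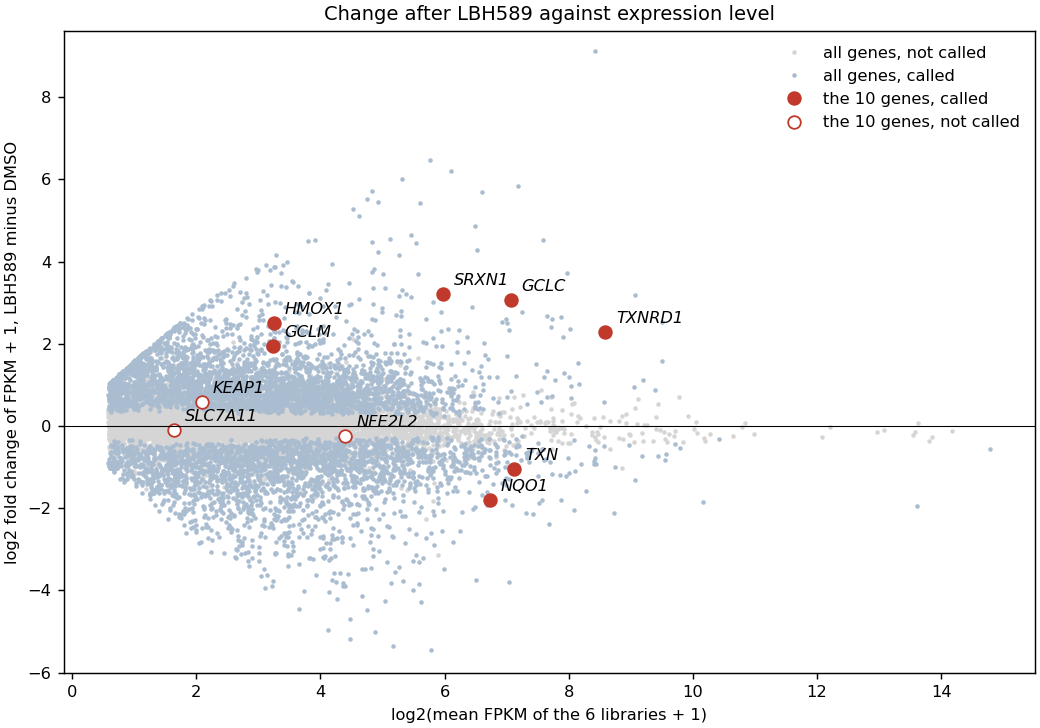
Log2 fold change of FPKM + 1, LBH589 minus DMSO (y axis), against log2 of the mean FPKM of the 6 libraries plus 1 (x axis) for the 11520 tested genes, with called genes in blue-grey and the 10 genes in red (open where not called). GCLC and TXNRD1 combined a high level with a log2 fold change of 3.06 and 2.29, while KEAP1 and SLC7A11 lay among the low genes.

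The deposited values are per transcript, and for several of these genes the split between transcripts differed among libraries of the same group far more than the sum. HMOX1, SRXN1, TXN and SLC7A11 have 1 listed transcript each, so their values do not depend on such a split. For GCLC, transcript GCLC-213 held 68.9, 10.1 and 1.32% of the gene's FPKM in LBH589 replicates 1 to 3, against 68.7, 65.7 and 3.18% in DMSO. Transcript GCLC-201 held 7.36, 43.9 and 82.96% in LBH589 and 15.7, 15.8 and 88.5% in DMSO, so which of them led differed among replicates of both groups. GCLC-209 was the third, at 57.2, 59.95 and 39.8 FPKM in LBH589, against 3.58, 4.36 and 2.04 FPKM in DMSO, and it was higher in LBH589 in each library. In TXNRD1, 8 of 12 listed transcripts were higher in all LBH589 libraries than in any DMSO library. The share over all listed transcripts was not computed, so this count is a description. TXNRD1-218, TXNRD1-221, TXNRD1-222 and TXNRD1-223, among those counted, were under 0.5 FPKM in every DMSO library and are listed only through LBH589. TXNRD1-201 and TXNRD1-214 were highest in DMSO replicate 3, at 22.9 and 17.7 FPKM. The most abundant by its mean over the libraries, TXNRD1-215, had 192, 401 and 325 FPKM in LBH589, against 77.2, 95.4 and 91.8 FPKM in DMSO. TXNRD1-205, which contains the bases just after the start in the window shown, had 271, 188 and 198 FPKM in LBH589, against 20.2, 36.4 and 10.7 FPKM in DMSO. NQO1-204 held 3.23, 4.73 and 11.4% of NQO1 in LBH589 replicates 1 to 3, against 13.8, 8.72 and 47.1% in DMSO, where replicate 3 stood apart. NQO1-201 was lower in LBH589 in each library, with 6.89, 32.1 and 28.9 FPKM against 59.6, 73.7 and 102.2 FPKM in DMSO. For NFE2L2, 3 different transcripts led over the 6 libraries, and NFE2L2-211 was listed at 0 FPKM in LBH589 replicates 1 and 3 and at 13.8 FPKM in replicate 2.

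When each gene was represented by its most abundant transcript, GCLC and NQO1 no longer passed, with log2 fold changes of 3.003 (adjusted p = 0.0951, limma) and -1.97 (adjusted p = 0.0570). The other 5 calls held there, and weighting transcripts by their length before summing kept all 7 calls. How fragments were divided between transcripts is not given in the sources used here.

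**Figure D3:**
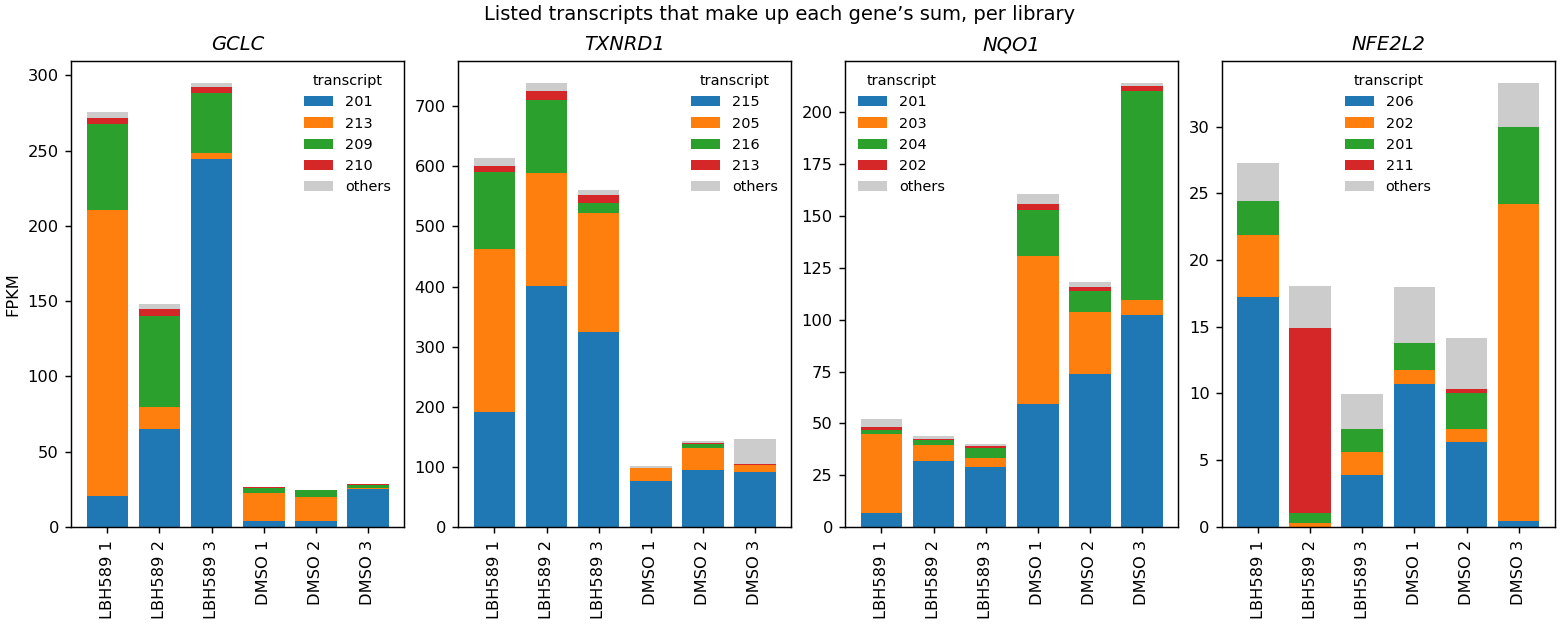
FPKM of the listed transcripts (y axis, a scale per panel) of GCLC, TXNRD1, NQO1 and NFE2L2, stacked to the gene's sum in each library, with the 4 most abundant transcripts in colour by their number and the others in grey. In GCLC the colours trade places between replicates while the 3 LBH589 sums, 148 to 295 FPKM, stay above the DMSO sums, 24.8 to 28.5 FPKM.

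Wider lists of antioxidant genes, chosen by function and with earlier results of these data known, moved in both directions. Of 99 tested genes in 7 lists, 26 rose and 23 fell, and the median log2 fold change was -0.05. Over all genes tested 27.2% rose and 21.6% fell, so calls in both directions are not particular to these lists. That balance moved with the scaling, to 33 that rose and 18 that fell with equal library sums, and to 34 and 18 with sums of 1000000. The whole set of genes moved the same way, from 3132 that rose and 2485 that fell to 3730 and 2011 with equal sums. With sums of 1000000 it was 3932 and 2052. Among 12 tested genes that control NRF2, 3 rose and 2 fell (median -0.17), and 1 fell without LBH589 replicate 1, 2 or 3 or DMSO replicate 3. With equal sums 5 rose and 1 fell, and with sums of 1000000 6 rose and 1 fell. SQSTM1, the autophagy receptor that binds KEAP1, had 245, 521 and 282 FPKM in LBH589, against 67.2, 48.4 and 39.5 FPKM in DMSO (log2 fold change 2.69, SE 0.33, limma adjusted p = 0.00114). The most abundant transcript of SQSTM1 went the other way (-0.26, adjusted p = 0.916), so that rise rests on the sum. GSK3B, a kinase that marks NRF2 for another route of degradation, rose to 41.8 ± 1.28 FPKM in LBH589, against 13.8 ± 1.70 FPKM in DMSO. MAFK, a small MAF partner of NRF2, rose to 4.77 ± 0.540 FPKM, against 2.63 ± 0.445 FPKM in DMSO (log2 fold change 0.67). RBX1, the RING subunit of the CUL3 ligase, fell to 16.6 ± 0.609 FPKM, against 31.1 ± 3.05 FPKM in DMSO. BACH1, a repressor that competes for the same elements, did not pass, at 8.71 ± 1.14 FPKM in LBH589 and 9.49 ± 1.81 FPKM in DMSO (adjusted p = 0.644, limma).

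Other glutathione genes moved in both directions, as did all genes tested, of which 27.2% rose and 21.6% fell. Of 13 tested genes of glutathione synthesis, recycling and peroxidases, 3 rose and 6 fell (median log2 fold change 0.16), and 3 fell without LBH589 replicate 2 or DMSO replicate 1 or 2. CHAC2, which degrades glutathione, rose to 14.2 ± 0.802 FPKM in LBH589, against 6.51 ± 0.518 FPKM in DMSO (SD, n = 3 each). GGCT, which acts on gamma-glutamyl amino acids, fell to 23.9 ± 1.28 FPKM, against 66.9 ± 7.96 FPKM in DMSO (log2 fold change -1.44). GGT1, a surface gamma-glutamyltransferase, fell to 0.532 ± 0.101 FPKM, against 2.30 ± 0.634 FPKM in DMSO. GPX8, a peroxidase of the endoplasmic reticulum, fell to 5.38 ± 2.30 FPKM, against 18.04 ± 2.96 FPKM in DMSO, a call that ended with its most abundant transcript (log2 fold change -1.02, limma adjusted p = 0.0844). With that setting 1 gene of this list rose and 3 fell. Of 17 tested glutathione transferases and conjugate exporters, 4 rose and 7 fell (median -0.32), and 2 rose without LBH589 replicate 1. ABCC2, an exporter of glutathione conjugates, had 3.397, 3.25 and 2.49 FPKM in LBH589, against 29.9, 31.7 and 30.6 FPKM in DMSO (log2 fold change -2.98, SE 0.12, limma adjusted p = 2.90e-05). The related exporters ABCC4 and ABCC5 fell too, with log2 fold changes of -1.04 and -0.76. ABCC5 did not pass with its most abundant transcript (-1.12, limma adjusted p = 0.09965), where 4 genes of the list fell. GSTA1, a glutathione transferase, rose to 2.996 ± 0.333 FPKM, against 0.411 ± 0.230 FPKM in DMSO. It entered the test through its LBH589 values, since its DMSO mean is under the filter of 0.5 FPKM, and closely related transferase genes make the split of fragments uncertain.

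Of 21 tested genes of the thioredoxin system and peroxiredoxins, 4 rose and 2 fell (median -0.05), and 15 did not pass. Over all genes tested, 27.2% rose and 21.6% fell. 1 gene of this list fell without LBH589 replicate 1 or 2, and likewise with equal sums or sums of 1000000. TXNIP, which binds and inhibits thioredoxin, had 27.97, 28.1 and 26.6 FPKM in LBH589, against 2.78, 2.54 and 1.70 FPKM in DMSO (log2 fold change 3.11, SE 0.15, limma adjusted p = 4.27e-05). Its groups were thus far apart, while TXN, its binding partner, moved the other way. SESN3, a sestrin, rose to 37.2 ± 0.625 FPKM, against 8.24 ± 1.81 FPKM in DMSO. PRDX1, an abundant cytosolic peroxiredoxin and a substrate of sulfiredoxin, rose, with 350.3, 203.8 and 353.2 FPKM in LBH589, against 158.4, 134.5 and 115.6 FPKM in DMSO (log2 fold change 1.11, limma adjusted p = 0.0120). PRDX3, the mitochondrial peroxiredoxin, fell to 20.2 ± 0.430 FPKM, against 37.1 ± 1.31 FPKM in DMSO. Processed copies of PRDX1 and TXN elsewhere in the genome could share fragments with them, and how the authors handled these is not given in the sources used here.

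Of 21 tested genes of haem, iron and quinone handling, 8 rose and 3 fell, where 27.2% and 21.6% of all genes tested did. The median log2 fold change of the list was 0.40, and 5 rose without DMSO replicate 2 or from the most abundant transcript. FTL, the light chain of the iron store ferritin, had 1136, 1142 and 1417 FPKM in LBH589, against 308, 203 and 151 FPKM in DMSO (log2 fold change 2.53, SE 0.27, limma adjusted p = 6.44e-04). All 3 LBH589 values lay well above DMSO, though ferritin genes also have processed copies. AKR1C3, an aldo-keto reductase, had 4.04, 3.96 and 3.32 FPKM in LBH589, against listed values of 0.0443, 0.0212 and 0 in DMSO, and entered the test through its LBH589 values. PIR, pirin, fell to 34.99 ± 3.85 FPKM in LBH589, against 75.8 ± 7.88 FPKM in DMSO. AIFM2, an oxidoreductase that limits ferroptosis by reducing coenzyme Q, fell to 0.832 ± 0.0155 FPKM, against 3.55 ± 1.09 FPKM in DMSO. NQO1 and PIR, both known NRF2 targets, thus fell where HMOX1 and FTL rose. Of the wider lists, 114 genes were named and 101 were in the files, and the others were not analysed here.

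**Figure D4:**
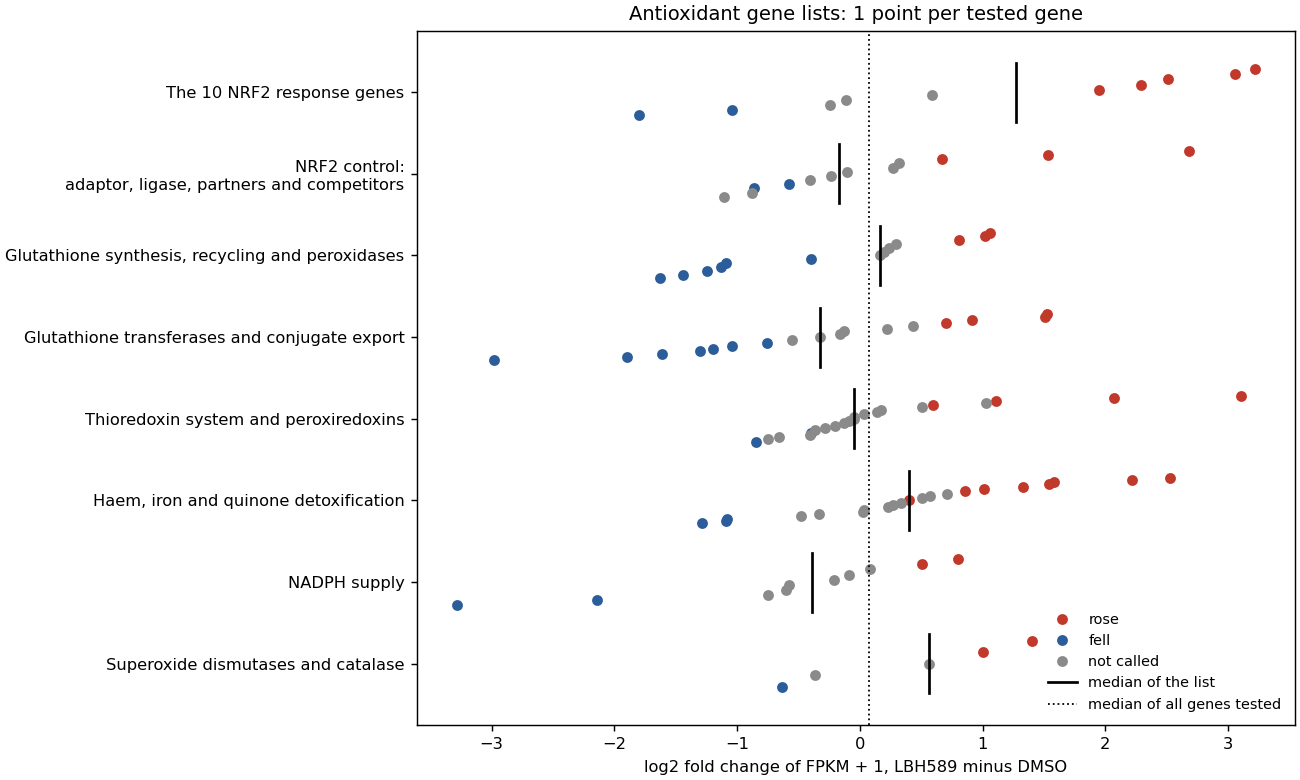
Log2 fold change, LBH589 minus DMSO (x axis), of each tested gene in the 10 NRF2 response genes and the 7 wider lists (rows), coloured by call, with the list median as a bar and the median of all genes as a dotted line at 0.08. The median of the 10 genes is 1.27, while the medians of the wider lists lie between -0.39 and 0.56. All were chosen with earlier results of these data known.

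Among 18 alternative ways of processing the values, the 5 genes that rose and the 2 that fell kept their direction in all, scalings included. The plot of the 10 genes under each alternative shows the spread of each.

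**Figure D5:**
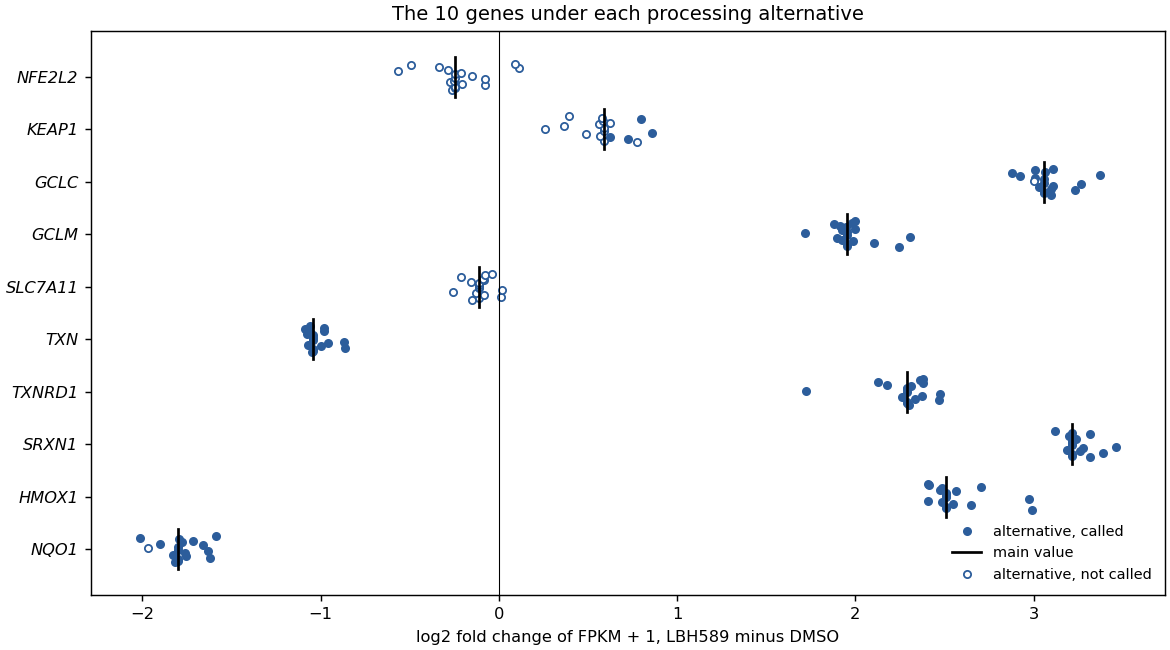
Log2 fold change, LBH589 minus DMSO (x axis), of each of the 10 genes (y axis) under the alternatives, with filled points where the gene was called, open points where it was not and a black bar for the value given in the text. GCLC and NQO1 have 1 open point each, KEAP1 has 4 filled points, and the points of NFE2L2 and SLC7A11 lie on both sides of 0.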

How the data were processed

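RNA sequencing libraries of 92.1 cells, 3 with LBH589 and 3 with DMSO, were made from total RNA extracted with Trizol, per the labels' protocols. Per the file headers, the authors deposited FPKM, a value for each transcript in each library. The submitters' processing notes name hg19 and Bowtie 0.12.2 with no role for either; the program behind the FPKM values is not given in the sources used here. Of the 30624 transcripts listed, none averages below 0.5 FPKM in both groups. Depth is unknown: FPKM times transcript length piled up at some low values in the DMSO libraries (13 to 17 in the fullest bin, against a median of 1 per bin) but hardly in the LBH589 libraries (3 to 5), so whole reads were not recovered and counting intervals are left out. A listed 0 may be a failed estimate.

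Transcripts were named by identifier through GENCODE 29 (30504, 99.6%), and FPKM was summed per gene. That release uses a later build, so no coordinates were taken for the files. The filter on low values was a mean over the 6 libraries of 0.5 FPKM or more. The test was limma 3.58.1 (under R 4.3.3, with statmod 1.5.0) on log2(FPKM + 1) (trend and robust moderation, treatment as the only term), with Benjamini-Hochberg adjustment over all genes. The test was checked on simulated data. No set test was run. The 10 genes and the lists were chosen with earlier results of these data known. Genes named in the text are the 10, up to 4 per wider list with the smallest adjusted p, and TXNIP, BACH1 and PRDX1; 1 gene that this rule names is not reported here. The group of a file came from the treatment label. Results were recomputed with a pseudocount of 0.1, without the filter, with a filter at 5 FPKM, under 5 other scalings, without trend and robust moderation, from the most abundant transcript, with a replicate block, and without each library in turn. Weighting transcripts by length was added after seeing the data.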

Additional observations from a re-analysis of the deposited data

How the results depend on the processing

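Across 18 alternatives, HMOX1, GCLM, TXNRD1, SRXN1 and TXN kept their direction and their call in all, and GCLC and NQO1 in 17. The exception for GCLC and NQO1 was the use of each gene's most abundant transcript, which left 1 fall among the 10 genes and 15 among the wider lists. A mean of at least 5 FPKM left 1844 rises among all genes, against 3132, since it tested 6866 genes; KEAP1 and SLC7A11 dropped out there. KEAP1 passed with equal sums (0.72), equal sums without mitochondrial genes (0.63), sums of 1000000 (0.86) and without DMSO replicate 1 (0.795). Its log2 fold change shrank to 0.26 from the most abundant transcript and to 0.37 with transcripts weighted by length, and it did not pass there. Signs turned for genes that were not called: SLC7A11 with equal sums (0.0135) and sums of 1000000 (0.0182), and BACH1 with equal sums (0.0586), sums of 1000000 (0.0628) and the most abundant transcript (0.48). SQSTM1, which was called, turned with the most abundant transcript (-0.26). The cause was not tested. Leaving out 1 library gave log2 fold changes of -0.57 to 0.12 for NFE2L2 and -0.23 to 0.0199 for BACH1. SOD3 lost its call in 7 alternatives.

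Samples with the same replicate number did not deviate together over genes (correlations of -0.10, 0.02 and -0.04). With so few libraries per group, these values cannot decide whether the numbers pair the libraries. With the replicate number as a block, 5 of the 10 genes rose and 2 fell, and 2617 of all genes rose and 2172 fell, against 3132 and 2485 without it. MAFK (adjusted p = 0.05003, limma) then did not pass.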

Other observations

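Genes that supply NADPH, the reducing power that thioredoxin reductase and glutathione reductase use, moved in both directions. NNT, the mitochondrial transhydrogenase, had 7.24, 8.48 and 6.50 FPKM in LBH589, against 72.6, 82.2 and 86.98 FPKM in DMSO (log2 fold change -3.28, SE 0.13, limma adjusted p = 2.43e-05). IDH1, the cytosolic NADP-dependent isocitrate dehydrogenase, fell to 62.6 ± 1.87 FPKM in LBH589, against 279.5 ± 18.3 FPKM in DMSO (SD, n = 3 each; log2 fold change -2.14, limma adjusted p = 3.26e-05). Both had LBH589 values far below every DMSO value. MTHFD2, a mitochondrial folate enzyme, rose to 28.7 ± 1.56 FPKM, against 19.96 ± 1.33 FPKM in DMSO (log2 fold change 0.50).

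Of 5 tested superoxide dismutase and catalase genes, 2 rose and 1 fell, where 27.2% and 21.6% of all genes tested did. CAT, catalase, which breaks down hydrogen peroxide, rose to 15.8 ± 0.597 FPKM in LBH589, against 7.43 ± 1.23 FPKM in DMSO (SD, n = 3 each; log2 fold change 1.00, limma adjusted p = 0.00159). CCS, the copper chaperone of SOD1, rose to 10.1 ± 1.69 FPKM, against 3.32 ± 1.26 FPKM in DMSO. SOD3, the extracellular form, had 6.40, 5.26 and 7.97 FPKM in LBH589, against 12.8, 9.002 and 10.2 FPKM in DMSO (log2 fold change -0.63, adjusted p = 0.0334, limma), and its call ended in 7 of 18 alternatives, 4 of them the fits without LBH589 replicate 1 or 2 or DMSO replicate 1 or 3 (-0.65 to -0.50). SOD2, the mitochondrial form, did not pass (log2 fold change 0.56, adjusted p = 0.0523, limma), but it passed in 6 of 18 alternatives, among them equal library sums (0.72, adjusted p = 0.0184) and the fit without LBH589 replicate 3 (0.75, adjusted p = 0.0163).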
